A study of Mus musculus with 108 samples.

Results

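Chromatin of the adult mouse liver was described here at the bins of 200 bp that carried the poised enhancer state in young mice and an active enhancer state in older mice on either diet. A bin was selected on its chromatin states alone: state 5 in SD 3m, and state 3 or state 4 in both SD 12m and CR 12m. The rule found 265994 of the 691200 autosomal bins in state 5 in SD 3m (38.5%; Wilson 95% limits 38.4 to 38.6), out of 12313718 autosomal bins. These bins, called turned bins here, covered 53.2 Mb, or 2.16% of the autosomal bins, and merged into 40363 stretches of adjacent bins. Each bin and stretch was assigned to the gene with the nearest transcription start site (TSS) among the curated RefSeq transcripts of GRCm38.p6, the assembly that mm10 represents.

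Enhancers are stretches of DNA, often far from the genes they act on, where transcription factors bind and raise transcription. Nucleosomes around them carry monomethylation of lysine 4 of histone H3 (H3K4me1), and when the enhancer is in use they also carry acetylation of lysine 27 (H3K27ac), which p300 and CBP deposit. An enhancer with H3K4me1 and without H3K27ac is commonly called poised or primed, and in the liver such elements serve responses to feeding, fasting, hormones and inflammation.

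The study profiled H3K4me3, H3K27me3, H3K27ac and H3K4me1 by ChIP-seq on the livers of female mice of the strain C57BL/6, kept as formalin-fixed blocks in paraffin. SD 3m and SD 12m were mice of 3 and 12 months on a standard diet, and CR 12m were mice of 12 months under a 30% caloric restriction begun at the age of the SD 3m mice. SD 3m comprised 8 mice and 30 libraries, SD 12m 8 mice and 29 libraries, and CR 12m 9 mice and 29 libraries. Libraries were merged within each group before ChromHMM assigned each bin 1 of 8 states, so that each group has 1 segmentation, its read depth is unknown, and the spread between mice is unknown for every difference below. Every value is therefore a description without a test, and limits over bins cover counting only, as neighbouring bins are not independent. The states have names in the study, and the marks given with them below were not measured here. State 4 is called active enhancer 2 there, and the signatures of states 4 and 5 are also called weak and poised. Active in this report thus includes a state also called weak, which held 59.7% (SD 12m) and 48.3% (CR 12m) of the turned bins. State 1 is the active TSS, state 2 flanks it, state 3 is an active enhancer with H3K27ac and H3K4me1, state 4 an active enhancer with H3K27ac and little H3K4me1, state 5 the poised enhancer with H3K4me1, state 6 is repressed by Polycomb, state 7 marks repeats and lamina-associated chromatin, and state 8 is quiescent. As a check of the tissue, the TSS of 29 of 29 autosomal genes for plasma proteins of hepatocytes lay in states 1 to 4 in all 3 groups, against 3, 4 and 3 of 12 lymphocyte markers in SD 3m, SD 12m and CR 12m. In the same order it was 53.4%, 58.3% and 58.8% of all autosomal genes, and 6, 7 and 10 of 12 liver endothelial markers.

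Sequences of 10 turned bins are shown so that the ground behind these counts can be seen. The leading 4 come from the longest stretch of each pair of states at 12 months on the autosomes from which sequence is shown, and the other 6 from the longest stretch of the gene with the most turned bins in 6 lists of liver genes, on the same autosomes. All are written 5′ to 3′ on the plus strand of GRCm38.p6, in lower case, with capitals for matches on either strand to any of 10 words that transcription factors of the liver are known to bind. The words were TGTTTAC for FOXA and CAAAGTCCA for HNF4A, GTTAATNAT for HNF1 and TTGCGNAA for CEBP, AGGTCA for nuclear receptors and TTCNNNGAA for STAT factors, TGANTCA for AP-1 and CACGTG for the E-box, and TGACGTCA for the CRE and ACANNNTGT for the core of the glucocorticoid receptor site. No word holds another. In each stretch the bin with the most matches is shown, so that these bins hold more matches than a usual bin, and a match describes letters and not binding.
D930032P07Rik, chr19:28606201-28606400, state 3 under SD 12m, state 3 under CR 12m: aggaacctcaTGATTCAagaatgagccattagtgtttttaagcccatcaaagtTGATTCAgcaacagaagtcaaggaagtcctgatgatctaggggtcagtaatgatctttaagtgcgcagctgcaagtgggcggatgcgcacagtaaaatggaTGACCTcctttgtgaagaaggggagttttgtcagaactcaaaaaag
Slco3a1, chr7:74672001-74672200, state 3 under SD 12m, state 4 under CR 12m: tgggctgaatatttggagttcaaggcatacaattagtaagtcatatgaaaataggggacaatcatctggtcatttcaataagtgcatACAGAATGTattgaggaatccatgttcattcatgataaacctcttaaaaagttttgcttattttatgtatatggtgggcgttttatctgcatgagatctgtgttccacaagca
Tex19.1, chr11:121137201-121137400, state 4 under SD 12m, state 3 under CR 12m: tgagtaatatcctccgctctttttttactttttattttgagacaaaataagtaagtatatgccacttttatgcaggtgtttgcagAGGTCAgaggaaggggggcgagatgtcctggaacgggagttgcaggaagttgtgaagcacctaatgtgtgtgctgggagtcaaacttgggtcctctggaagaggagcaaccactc
Smim41, chr15:101329601-101329800, state 4 under SD 12m, state 4 under CR 12m: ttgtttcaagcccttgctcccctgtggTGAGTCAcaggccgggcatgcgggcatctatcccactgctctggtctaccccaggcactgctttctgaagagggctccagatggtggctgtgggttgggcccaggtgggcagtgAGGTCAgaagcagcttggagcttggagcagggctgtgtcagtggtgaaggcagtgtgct
Plg, chr17:12397201-12397400, state 3 under SD 12m, state 3 under CR 12m: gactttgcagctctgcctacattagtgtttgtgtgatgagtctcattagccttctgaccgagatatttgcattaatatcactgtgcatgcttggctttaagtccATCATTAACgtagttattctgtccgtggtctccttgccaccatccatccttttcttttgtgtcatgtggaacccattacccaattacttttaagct
Pparg, chr6:115334201-115334400, state 4 under SD 12m, state 4 under CR 12m: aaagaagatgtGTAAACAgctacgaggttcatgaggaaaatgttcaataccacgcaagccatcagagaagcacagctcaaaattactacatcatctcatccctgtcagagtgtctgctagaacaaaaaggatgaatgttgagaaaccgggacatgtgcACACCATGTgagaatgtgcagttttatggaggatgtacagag
Arntl, chr7:113246401-113246600, state 3 under SD 12m, state 3 under CR 12m: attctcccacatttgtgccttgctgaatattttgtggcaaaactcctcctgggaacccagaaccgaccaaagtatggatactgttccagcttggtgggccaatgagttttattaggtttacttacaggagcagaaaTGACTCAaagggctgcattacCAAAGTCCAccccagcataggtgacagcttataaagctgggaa
Hmgcs1, chr13:119721601-119721800, state 3 under SD 12m, state 3 under CR 12m: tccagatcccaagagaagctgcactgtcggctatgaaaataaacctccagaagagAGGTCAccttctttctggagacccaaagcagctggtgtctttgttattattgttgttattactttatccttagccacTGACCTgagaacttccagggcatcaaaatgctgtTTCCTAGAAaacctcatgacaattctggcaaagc
Pdk4, chr6:5512601-5512800, state 3 under SD 12m, state 3 under CR 12m: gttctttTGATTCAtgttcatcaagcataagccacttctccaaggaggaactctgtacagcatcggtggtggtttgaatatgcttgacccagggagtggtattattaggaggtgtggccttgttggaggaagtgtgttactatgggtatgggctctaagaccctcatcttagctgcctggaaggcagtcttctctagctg
Cps1, chr1:67153001-67153200, state 3 under SD 12m, state 3 under CR 12m: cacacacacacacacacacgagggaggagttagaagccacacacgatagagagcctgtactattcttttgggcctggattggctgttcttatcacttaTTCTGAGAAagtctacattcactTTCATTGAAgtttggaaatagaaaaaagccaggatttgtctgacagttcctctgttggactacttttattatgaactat

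These bins lay outside the promoters of their nearest genes. The stretch in state 3 under both diets, chr19:28603201-28611600, was 8.4 kb long and lay within an intron of Glis3, 70.8 kb upstream of the TSS of the long non-coding RNA D930032P07Rik. State 3 under SD 12m with state 4 under CR 12m was found throughout a stretch of 3.2 kb, chr7:74672001-74675200, which overlapped no gene and lay 119 kb upstream of Slco3a1, an organic anion transporter. The opposite pair, state 4 under SD 12m with state 3 under CR 12m, filled 6.0 kb at chr11:121136401-121142400, 6.74 kb upstream of Tex19.1. State 4 under both diets filled 17.6 kb at chr15:101321801-101339400, 37.4 kb downstream of the TSS of Smim41 and outside any gene. A longer stretch in state 4 under both diets, on chromosome 18, is given further on without its sequence.

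The stretches of the 6 liver genes lay within those genes or at a distance from them, as they were assigned by the nearest TSS. The stretch of Plg, which encodes plasminogen, was chr17:12396201-12399400, 3.2 kb long, and overlapped the gene with 306 bp of exon. That of Arntl, the clock factor BMAL1, was 4.0 kb of intron at chr7:113245001-113249000, and that of Cps1, the enzyme that starts the urea cycle, was 4.6 kb at chr1:67151001-67155600 with 90 bp of exon. Outside the body of their nearest gene lay the stretches of Pparg, the adipogenic nuclear receptor, with 8.0 kb at chr6:115326401-115334400, and of Pdk4, the kinase that restrains pyruvate dehydrogenase, with 3.0 kb at chr6:5512401-5515400. Their centres lay 30.55 kb upstream of the TSS of Pparg and 17.6 kb upstream of that of Pdk4. The stretch of Hmgcs1, which encodes the HMG-CoA synthase of cholesterol synthesis, was 3.6 kb at chr13:119719001-119722600, within an intron of Nim1k and 30.4 kb downstream of the TSS of Hmgcs1.

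Turned bins were the most frequent outcome of poised bins by this grouping of states. State 5 was kept in both 12-month groups by 105476 poised bins (15.3%), here called stable, and 72502 (10.5%) were in the quiescent state 8 in both, here called lost. Just outside the rule were 86677 bins (12.5%) in state 3 or 4 in SD 12m alone and 94248 (13.6%) in CR 12m alone, and 66303 (9.59%) had any other pair of states. The passage in the opposite direction was rarer: 31935 of 2045585 bins in state 3 or 4 in SD 3m (1.56%) were in state 5 in both 12-month groups, so that the turned bins were 8.33 times as many. These shares selected the bins and are a description of the rule.

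The totals of the states moved with these counts. Over the autosomes, state 5 held 691200 bins at 3 months, 338897 at 12 months on the standard diet and 304247 under restriction, and states 3 and 4 together held 2045585, 2508739 and 2580109 in the same order. Their part in the turned bins was not tested. Both comparisons share the SD 3m segmentation, and a call of state 5 particular to it would count in both.

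The share of poised bins that turned varied among autosomes from 29.7% on chromosome 1 to 47.8% on chromosome 11, with a median of 39.5% over the 19 autosomes. Taken by diet, 51.0% of poised bins were in state 3 or 4 in SD 12m and 52.1% in CR 12m, and the share was higher in CR 12m on 12 of 19 autosomes. The diets thus showed no common direction across autosomes in how many poised bins became active.

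The diets did differ in which active state the turned bins carried. State 4 in both groups was found in 118104 turned bins (44.4%), and state 3 in both in 96754 (36.4%). State 4 in SD 12m with state 3 in CR 12m was found in 40717 bins (15.3%), and the opposite in 10419 (3.92%), a ratio of 3.91. In all, state 3 took 40.3% of the turned bins in SD 12m (Wilson 95% limits 40.1 to 40.5) and 51.7% in CR 12m (51.5 to 51.9). The share was higher in CR 12m on 19 of 19 autosomes, by 7.84 to 14.3 percentage points.

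**Figure D1:**
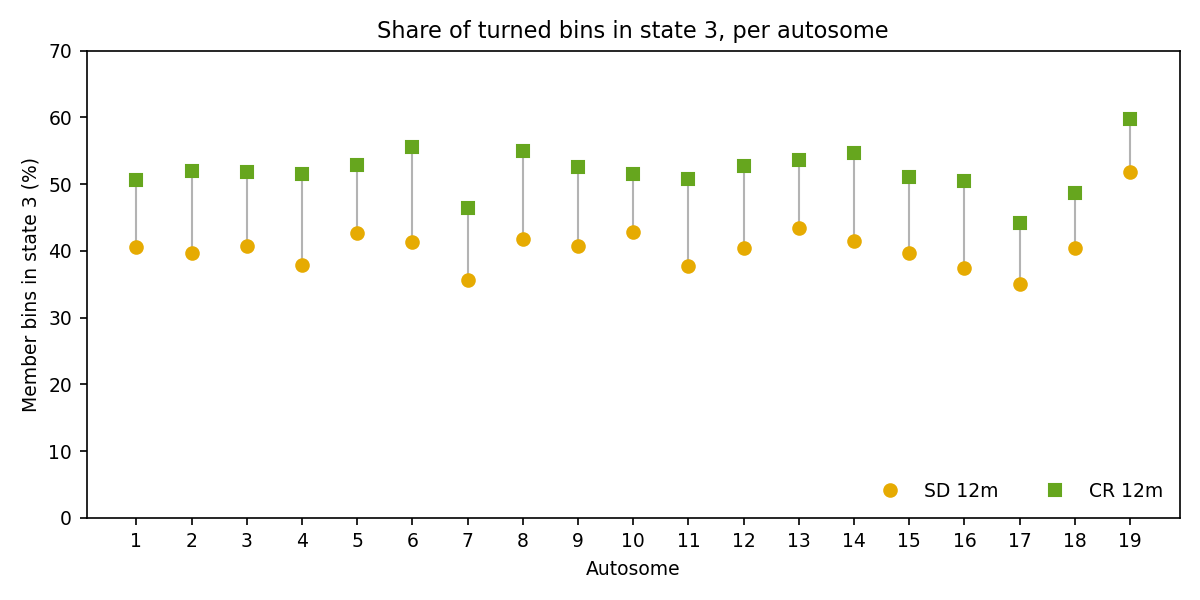
Percent of turned bins in state 3 (vertical axis) on each of the 19 autosomes (horizontal axis), in SD 12m (circles) and CR 12m (squares), 1 segmentation per group. The circles lie between 35.1% on chromosome 17 and 51.9% on chromosome 19, and the squares between 44.2% and 59.7% on the same chromosomes, each above its circle.

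By the descriptions given above, the 2 active states differ in how often they carry H3K4me1. The libraries for this mark differed in number between the groups, with 8, 6 and 9 for SD 3m, SD 12m and CR 12m. H3K27ac had 8, 7 and 9 libraries in the same order. Among 1708889 autosomal bins in state 3 or 4 in all 3 groups, state 3 took 65.6% (SD 3m), 62.9% (SD 12m) and 69.2% (CR 12m). The gap at 12 months was thus in the same direction in bins that had been active at 3 months, where both shares were above those of the turned bins. The part of the numbers of libraries in this gap was not tested.

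The stretches of turned bins were short. Their median length was 800 bp, with quartiles of 400 and 1600 bp, and 6884 of them (17.1%) were 1 bin long. The 17765 stretches of at least 1 kb (44.0%) held 215420 of the turned bins, 1531 stretches reached 5 kb and 151 reached 10 kb. Most stretches carried 1 active state from end to end: in SD 12m 52.0% were in state 3 throughout, 31.3% in state 4 throughout and 16.7% in both, against 60.5%, 23.0% and 16.5% in CR 12m. Stretches in state 4 throughout were the longer ones, with a median of 1000 bp against 600 bp for state 3 in each 12-month group.

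The 10 longest stretches, of 16.6 to 19.8 kb, were mostly in state 4. The longest, chr4:154504401-154524200, lay within introns of Prdm16, a regulator of brown fat and of blood stem cells, over the long non-coding RNA Gm52688. It was in state 4 in 86 of its 99 bins in SD 12m and in 77 in CR 12m. At chr18:77796201-77814600, within introns of Pstpip2 and near F830208F22Rik, all 92 bins were in state 4 in both groups, as were the 88 bins near Smim41. The diets gave different states in the 18.2 kb across Lrrc27 near Pwwp2b, at chr7:139224201-139242400, where 0 bins were in state 3 in SD 12m and 38 of 91 in CR 12m. Other such cases were the 17.4 kb at Mymk, chr2:27052001-27069400, with 3 and 32 bins of 87 in state 3, and the 16.6 kb near Actbl2, chr13:111263201-111279800, with 2 and 34 bins of 83. The other 4, at Soga1 on chromosome 2, near 2010010A06Rik on chromosome 18, within Cbfa2t3 near Pabpn1l on chromosome 8 and at Gm11958 on chromosome 11, had at most 4 bins in state 3 in either group.

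Most stretches of turned bins had a neighbour that was already active at 3 months, as had most poised domains, the runs of adjacent state 5 bins in SD 3m. Of the 40363 stretches, 47.1% had a state 3 or 4 bin of SD 3m directly on both sides, 38.5% on 1 side and 14.4% on neither, so that 85.6% had at least 1, against 84.1% of all poised domains. State 3 was the usual neighbour: 83.6% of stretches touched it, against 6.29% that touched state 4, 41.4% that touched further state 5 and 11.5% that touched state 8. At 12 months the stretches were part of larger active domains, whose median length around a stretch was 14400 bp (SD 12m) and 21600 bp (CR 12m). Such a domain held at least 1 bin active in SD 3m for 91.0% (SD 12m) and 93.1% (CR 12m) of stretches, which left 3641 and 2784 stretches in domains with no bin active before.

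The number of active neighbours of a poised domain went with its fate. In SD 3m there were 58677 such domains, of which 36054 (61.4%) held a turned bin and 23672 (40.3%) turned throughout, and the latter held 61.4% of all turned bins. With active bins on both sides 54.1% of the bins of a domain turned, with an active bin on 1 side 35.3%, and with none 12.0%. The loss to state 8 ran the other way, with 1.64%, 11.0% and 27.2% of bins, whereas the stable share was 16.2%, 15.4% and 13.3%. Short domains turned more often than long ones, from 61.5% of bins in domains of 200 bp to 26.7% in those of at least 5 kb. Among the latter, the share was 40.3% with active bins on both sides and 10.3% with none.

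The share that turned was lower at each step away from the nearest active bin of SD 3m. It was 61.5% directly beside one, 53.4% at 800 to 1000 bp, 36.4% at 2200 to 5000 bp and 7.13% beyond 10 kb. Over the same distances the lost share went from 0.919% to 29.0%. The bins active under 1 diet alone differed between the diets in this respect: those in CR 12m alone went from 17.3% beside an active bin to 6.59% beyond 10 kb, and those in SD 12m alone from 6.97% to 19.4% at 5200 to 10000 bp and 13.5% beyond. Directly adjacent bins made up 19.4% of the turned bins, and those beyond 10 kb made up 3.72%. ChromHMM assigns states along a chromosome with a model in which neighbouring bins are linked, and its part in this gradient was not tested.

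**Figure D2:**
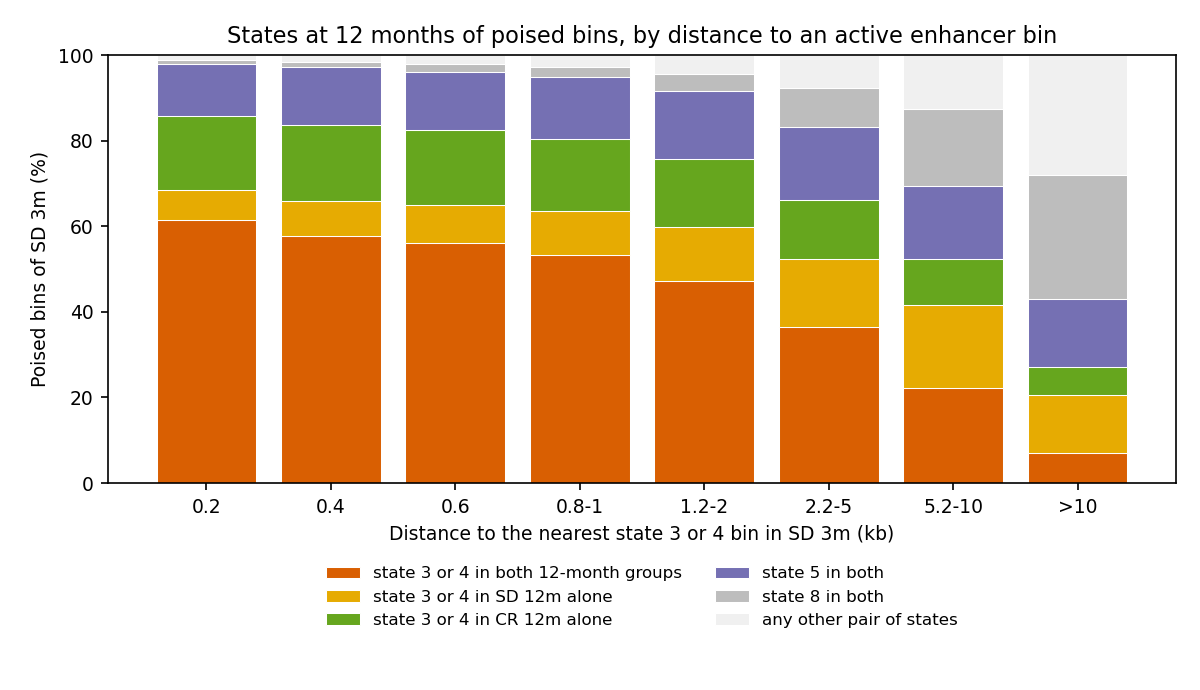
Percent of the poised bins of SD 3m (vertical axis) with each pair of states at 12 months (colours), by distance in kb to the nearest state 3 or 4 bin of SD 3m (horizontal axis). The share in state 3 or 4 in both 12-month groups falls from 61.5% at 0.2 kb to 7.13% beyond 10 kb, and the share in state 8 in both rises from 0.919% to 29.0%.

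Turned bins lay nearer to genes' starts than the other poised bins. Their median distance to the nearest TSS was 16.7 kb, against 36.0 kb for stable bins, 37.0 kb for lost bins and 57.9 kb for all autosomal bins. Within 2 kb of a TSS lay 7.03% of turned bins, 2.25% of stable bins and 3.44% of lost bins. The share of poised bins that turned was 48.1% within 1 kb of a TSS, highest at 54.2% between 2 and 5 kb, and 22.6% beyond 100 kb. By annotation, 41.5% of turned bins were intergenic, 16.3% in the first intron, 35.3% in later introns and 6.89% exonic. Stable bins were found less in intergenic ground (16.6%) and more in the first intron (32.7%), and exons held 2.04% of them.

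The sequence of the turned bins was richer in G and C. Over bins without unassembled bases, GC content was 47.8% in turned bins, 42.7% in stable bins, 43.5% in lost bins and 41.9% in all autosomal bins, and a turned bin held 2.52 CpG on average against 1.76 in stable bins. Repeats, the soft-masked bases of the reference, took 25.1%, 28.8%, 22.5% and 33.5% of bases in the same order. The GC content was 48.1% where state 3 was carried under both diets and 47.4% where state 4 was. Bases of G and C thus set the turned bins apart from stable and lost bins more than the active state they took.

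The searched words differed in direction. CACGTG, the E-box that the clock factors and MYC bind, was in 2.98% of turned bins, 2.06% of stable bins and 1.99% of all autosomal bins. AGGTCA, printed above in capitals beside Smim41 and Tex19.1, was in 13.5%, 11.7% and 11.1%, and TGACGTCA in 0.141%, 0.110% and 0.111%. Rarer in turned bins was GTTAATNAT, seen above in the Plg bin, which was in 0.360%, 0.730% and 0.703%. TGTTTAC was in 2.31%, 3.20% and 2.98%, and TTCNNNGAA in 5.44%, 6.28% and 7.36%. The shares of CAAAGTCCA were 0.273%, 0.284% and 0.257%, those of TTGCGNAA 0.179%, 0.186% and 0.173%, those of TGANTCA 5.74%, 5.77% and 5.96%, and those of ACANNNTGT 6.00%, 6.40% and 6.58%. Among these 10 words, those for the liver factors HNF4A and CEBP were close to equally frequent in turned and stable bins, and the part of GC content in the other differences was not tested.

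**Figure D3:**
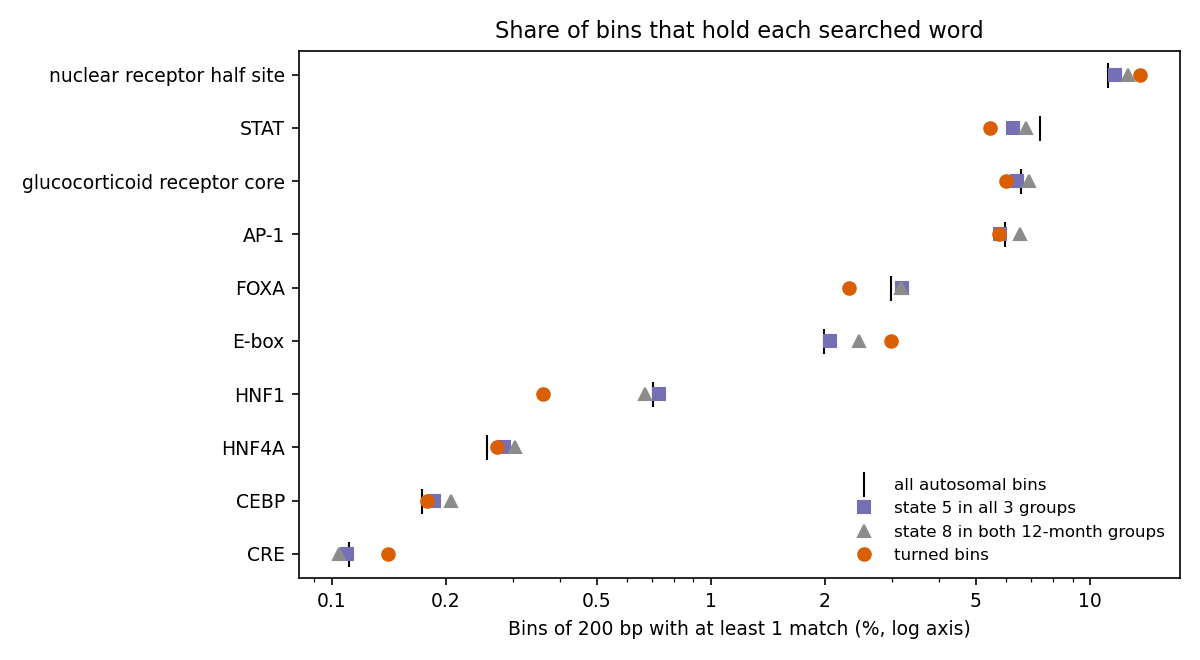
Percent of bins of 200 bp that hold at least 1 match of each word on either strand (horizontal log axis) for turned bins (circles), bins in state 5 in all 3 groups (squares), bins lost to state 8 in both 12-month groups (triangles) and all autosomal bins (ticks). Circles lie to the right of squares and ticks for the E-box, CRE and nuclear receptor words and to the left for HNF1, FOXA and STAT.

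Turned bins were spread over most genes with poised ground. Of 24963 autosomal genes, 14880 were nearest to a poised bin and 11676 of these (78.5%) to a turned bin, with a median of 12 turned bins per gene. The 1000 leading genes held 38.8% of the turned bins. Genes differed widely: among the 3876 genes with at least 50 poised bins, the share that turned had a median of 31.3%, quartiles of 6.17% and 68.4%, and ends of 0% for 618 genes and 100% for 106. State 3 was carried by more turned bins in CR 12m than in SD 12m at 5056 genes and by fewer at 1552, with equality at 5068.

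The gene with the most turned bins was the long non-coding RNA D930032P07Rik on chromosome 19, with 417 bins (83.4 kb). It was also rich in stable bins, 501 of its 1316 poised bins, so that 31.7% turned, and 94.0% of its turned bins were in state 3 in SD 12m and 89.0% in CR 12m. Slco3a1 had a like pattern, with 268 turned and 379 stable bins of 984.

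The share that turned among the other leading genes ran from 62.1% at Lifr to 98.5% at Gm46567. Nectin1 and Cadm1, cell adhesion molecules on chromosome 9, had 353 of 394 and 288 of 392 poised bins turned. Nav2, a protein of the cytoskeleton, had 337 of 362 (93.1%), Celsr1, a cadherin of planar cell polarity, 267 of 290 (92.1%), and Dusp7, a phosphatase of the ERK kinases, 253 of 257 (98.4%). The bins of Dusp7 were nearly all in state 4, with 1.98% in state 3 in SD 12m and 8.30% in CR 12m. Signalling genes among the leading 20 were Lifr, the receptor of leukaemia inhibitory factor, with 303 of 488 bins, Prkca, protein kinase C alpha, with 285 of 411, and Prex1, an exchange factor of Rac, with 252 of 387. Trmt9b had 269 of 366. Ground nearest to non-coding genes held 397 bins at 2610035D17Rik, 364 at Gm4265, 333 at Gm51695, 317 at Rps18-ps4, 282 at Mir6995, 278 at A330074K22Rik, 257 at Gm46567 and 252 at 5930403N24Rik.

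**Figure D4:**
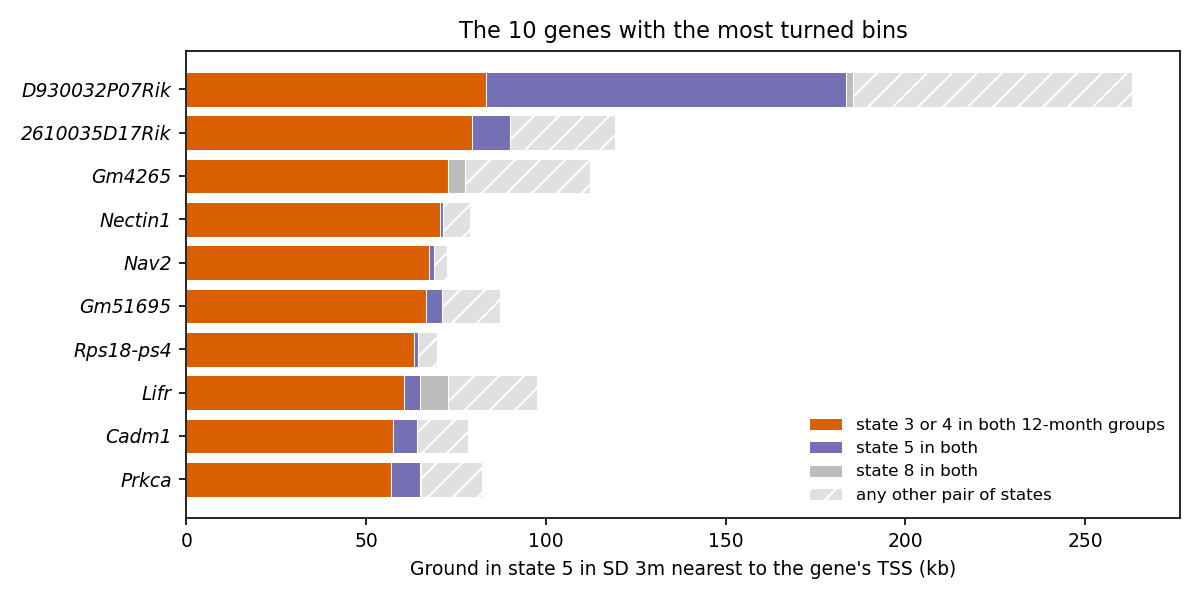
Ground in state 5 in SD 3m, in kb (horizontal axis), nearest to the TSS of each of the 10 genes with the most turned bins, divided by its states at 12 months. The turned part runs from 57.0 kb at Prkca to 83.4 kb at D930032P07Rik, and the stable part is the larger one at D930032P07Rik.

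Among genes with at least 50 poised bins, the 15 with the most bins of the 106 that turned throughout included regulators of growth and stress signalling. Ccnd1, which encodes cyclin D1, had 124 bins on chromosome 7, Map3k14, the kinase of the non-canonical NF-κB pathway, 120, and Smad6, an inhibitor of BMP signalling, 116. Crtc1, a coactivator of CREB, had 112 bins, all in state 4 in SD 12m, with 42.9% in state 3 in CR 12m. Cldn5, the claudin of endothelial junctions, had 111, Sema4c 118, Xirp1 113, Armc2 106 and Plet1 105. The others were Enc1 and 4930578M01Rik with 101 each, Mymk, the fusion protein of muscle, with 98, Arhgap8 with 95, Gm46458 with 92 and Smim41 with 91. State 3 took a larger share in CR 12m than in SD 12m at 13 of these 15 genes, and a smaller one at Ccnd1 (28.2% and 10.5%) and Smad6 (71.6% and 60.3%). This direction was general: over all genes with a turned bin it was larger at 5056, smaller at 1552 and equal at 5068. Over all autosomal bins in state 3 or 4, state 3 took 51.8% in SD 12m and 59.1% in CR 12m.

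Turned bins were unevenly spread along the autosomes. Of 2473 blocks of 1 Mb, 1732 held a turned bin, and over the 1742 blocks with at least 50 poised bins the share that turned had quartiles of 14.5% and 57.5%. The densest block was 120000001 to 121000000 of chromosome 8, around Gse1, Cox4i1 and Irf8, with 1115 turned bins of 1646. Next came the imprinted domain of Kcnq1 and Cdkn1c on chromosome 7, 143000001 to 144000000, with 916 of 1271. At 19000001 to 20000000 of the same chromosome, which holds Foxa3, Relb and the cluster of Apoe, 816 of 946 (86.3%) turned.

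The nearest genes differed in state at their TSS between 3 and 12 months. Of the 3347 genes with at least 25 turned bins, 68.7% (SD 3m), 86.7% (SD 12m) and 87.0% (CR 12m) had a TSS in states 1 to 4, and a TSS in state 5 was found in 18.4%, 3.05% and 3.47%. Over all 14880 genes with a poised bin the share in states 1 to 4 was 68.2%, 76.2% and 76.6%, equal at 3 months to within 1 percentage point. Among 3204 genes with poised but no turned bins the share in states 1 to 4 was 40.2%, 40.1% and 38.6%, and over all autosomal genes it was 53.4%, 58.3% and 58.8%. The difference lay in states 3 and 4, since state 1 at the TSS was found in 37.3%, 35.6% and 30.1% of the genes with at least 25 turned bins. Where a TSS itself lay in a turned bin, the rule fixed this change, and how many of the genes these were was not counted. The genes with no turned bin were chosen for having none, so the rule also bears on their contrast.

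Lists of liver genes and of markers of other cell types were read against the 38.5% of all poised bins that turned and the 78.5% of genes with a poised bin that had a turned bin. Lists of functions lay above the former share in most cases. Several of these lists, such as inflammation, the clock and growth arrest, are not particular to hepatocytes. By the median gene, the share that turned was 57.1% over all genes with a poised bin, between 51.9% for the axis of growth hormone, IGF and insulin and 95.1% for nuclear receptors in the 12 lists of functions, and between 0% and 35.7% in the 5 lists of markers of other cell types. Of the genes for hepatocyte transcription factors, 18 of 18 had turned bins, and 590 of their 985 poised bins (59.9%) turned. Gata6 and Gata4, zinc finger factors of liver development, led with 152 of 183 and 67 of 92 bins, and Onecut2, a homeodomain factor related to HNF6, had 61 of 190. For plasma proteins 21 of 21 genes with poised bins had turned ones, with 397 of 851 bins (46.7%). Plg had 62 of 117 bins, Apob, the protein of very low density lipoprotein, 59 of 259, and Ambp, the precursor of alpha-1-microglobulin and bikunin, 43 of 137. No poised bin was nearest to Afp, Apoa2, Apoc3, Apoe, Cfb, Itih3, Rbp4 and Vtn.

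Genes of energy metabolism had turned bins in most cases, as had 78.5% of all genes with a poised bin. Of fatty acid oxidation and ketogenesis, 16 of 16 genes with poised bins had turned ones, with 291 of 489 bins (59.5%) and 0 lost. Pdk4 had 62 of 79, Acadl, the long-chain acyl-CoA dehydrogenase, 40 of 72, and Cpt1a, which lets fatty acids into mitochondria, 33 of 46. State 3 took 77.3% of the list's turned bins in SD 12m and 93.8% in CR 12m. Turned bins in state 3 were more numerous under CR 12m than under SD 12m at 9 genes of this list and less numerous at 0. Over all genes with a turned bin these counts were 5056 and 1552, so that the direction was not particular to this list. Kupffer cell markers (0 and 4) and cholangiocyte markers (1 and 2) went the other way. Of fatty acid and sterol synthesis 18 of 20 genes had turned bins, with 329 of 663 (49.6%), led by Hmgcs1 (44 of 51), Lpin2, a phosphatidate phosphatase (37 of 51), and Srebf1, the lipogenic transcription factor (36 of 39). Elovl6 and Pnpla3, named after their values were seen, had 3 and 42 poised bins but no turned bins.

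Amino acid and urea metabolism had 16 of 17 genes with turned bins, 478 of 898 bins (53.2%). Over all genes with a poised bin, 78.5% had a turned one. Cps1 had 137 of 257 bins, 97.8% of them in state 3 in each 12-month group. Ass1, another enzyme of the urea cycle, had 91 of 241, and Glul, the glutamine synthetase of hepatocytes around the central vein, 64 of 118, where state 3 took 10.9% under SD 12m and 62.5% under CR 12m. The exception, G6pc, was named after its values were seen and had only 5 poised bins. Genes of xenobiotic and bile acid metabolism had 379 of 619 bins turned (61.2%), with 18 of 19 genes. Cyp2b10, a cytochrome that phenobarbital induces, had 110 of 115, Abcb11, the bile salt export pump, 76 of 109, and Abcc3, an exporter at the sinusoidal side, 60 of 64, with 31.7% in state 3 under SD 12m and 90.0% under CR 12m.

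By share of bins, hormonal and circadian genes lay near the background of 38.5%, and 78.5% of all genes with poised bins had turned ones. In the axis of growth hormone, IGF and insulin, 18 of 20 genes had turned bins, with 656 of 1549 bins (42.3%). Igf1r, the receptor of IGF1, had 117 of 553 and 255 stable bins. Irs2 and Igf2r, an adaptor of the insulin receptor and the receptor that clears IGF2, had 95 of 98 and 75 of 78. State 3 took 43.2% and 91.6% of the bins of Irs2, and 18 and 54 of the 75 bins of Igf2r, in SD 12m and CR 12m. Igfbp1 and Igfbp3, named after their values were seen, had 14 and 40 poised bins but no turned bins. Of the clock, 13 of 14 genes had turned bins, 331 of 872 (38.0%). Arntl had 117 of 354 bins, Nfil3, a repressor of clock output, 98 of 115, and Per1, a repressor of BMAL1 and CLOCK, 25 of 27. State 3 took 10.2% of these bins in SD 12m and 71.4% in CR 12m at Nfil3, 12.0% and 84.0% at Per1, and 100% and 94.9% at Arntl. Npas2, named after its values were seen, had 0 of its 130 poised bins turned. Of nuclear receptors, 16 of 16 genes had turned bins, with 370 of 1170 (31.6%), led by Pparg (111 of 123), Nr3c1, the glucocorticoid receptor (101 of 133), and Esr1, an oestrogen receptor (51 of 313). The median gene of this list turned at 95.1%, so that its low share of bins rests on genes with much poised ground such as Esr1. State 3 took 62.7% of the turned bins of Esr1 in SD 12m and 39.2% in CR 12m, against 3.60% and 28.8% at Pparg.

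Genes of growth arrest and p53 had the highest share of these lists, 448 of 683 bins (65.6%), and 9 of 11 genes, or 81.8%, had turned bins, which is near 78.5%. Gadd45g and Gadd45a, stress genes that p53 and other signals induce, held most of them with 225 of 324 and 156 of 216, and Cdkn1a, which encodes p21, had 25 of 25. State 3 took 9.78% of the bins of Gadd45g in SD 12m and 39.6% in CR 12m, and 28.2% and 47.4% of those of Gadd45a. Cdkn2b and Cdkn2c, named after their values were seen, had 57 and 3 poised bins but no turned bins. In the inflammatory and acute phase response, 16 of 19 genes had turned bins, 438 of 911 (48.1%), led by Nfkb1, a subunit of NF-κB, with 177 of 246, Ccl2, a chemokine for monocytes, with 68 of 112, and Il1b with 37 of 38. State 3 at Nfkb1 went the other way from most leading genes of the lists, with 31.1% in SD 12m and 9.60% in CR 12m. Over this inflammatory list, state 3 took 42.9% of the turned bins in SD 12m and 38.4% in CR 12m. By gene, turned bins in state 3 were more numerous under CR 12m at 7 genes of the list and less numerous at 4. For writers and erasers of the profiled marks, 14 of 17 genes had turned bins, with 208 of 621 (33.5%) against 280 stable ones. Ep300, an acetyltransferase of H3K27, had 48 of 50, Kdm1a, a demethylase of H3K4, 42 of 49, and Kmt2a, a methyltransferase of H3K4, 26 of 35. Ezh2, Crebbp and Hdac3, named after their values were seen, had 72, 42 and 2 poised bins but no turned bins.

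Markers of the other cells of the liver had turned shares below 38.5%, except for those of the bile duct. Stellate cell and fibroblast markers had 103 of 1406 poised bins turned (7.33%), at 4 of 9 genes, and 779 (55.4%) lost to state 8. Of these 103, Acta2, smooth muscle actin, had 50 of 62 and Pdgfrb 49 of 173, and 0% of both were in state 3 in either 12-month group, whereas Reln had 3 of 536 turned and 460 lost. Lymphocyte markers had 22 of 481 (4.57%) turned, at 3 of 8 genes, with 18 of 18 at Lck, 2 of 2 at Cd4 and 2 of 43 at Il7r. Liver endothelial markers had 182 of 1234 (14.7%) and 391 stable bins, led by Oit3 (56 of 86), Flt1 (45 of 286) and Tek (29 of 160). Kupffer cell markers had 111 of 365 (30.4%), at 5 of 8 genes, led by Csf1r (37 of 60), Itgam (32 of 42) and Adgre1 (25 of 117). Cholangiocyte markers had 173 of 383 (45.2%), held by 3 of 6 genes: Sox9 with 66 of 82, Spp1 with 58 of 68 and Krt19 with 49 of 117. State 3 took 72.4% of the turned bins of Spp1 in SD 12m and 41.4% in CR 12m, against 60.6% and 80.3% at Sox9.

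The TSS of these markers did not follow the turned shares. In states 1 to 4 lay 2, 4 and 3 of 12 stellate and fibroblast markers, 3, 3 and 3 of 11 autosomal Kupffer cell markers, 6, 7 and 10 of 12 endothelial markers and 2, 3 and 4 of 7 cholangiocyte markers in SD 3m, SD 12m and CR 12m. In the Polycomb state 6 lay 0, 5 and 5 TSS of the stellate and fibroblast markers and 2, 5 and 6 of the Kupffer cell markers. The counts were 0, 2 and 1 for cholangiocyte markers, 0, 0 and 0 for endothelial markers and 3, 2 and 4 for lymphocyte markers. Over all autosomal genes, state 6 at the TSS was found in 10.1%, 13.9% and 11.5%. In whole liver a change in the share of a cell type and a change of chromatin within its cells cannot be told apart.

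**Figure D5:**
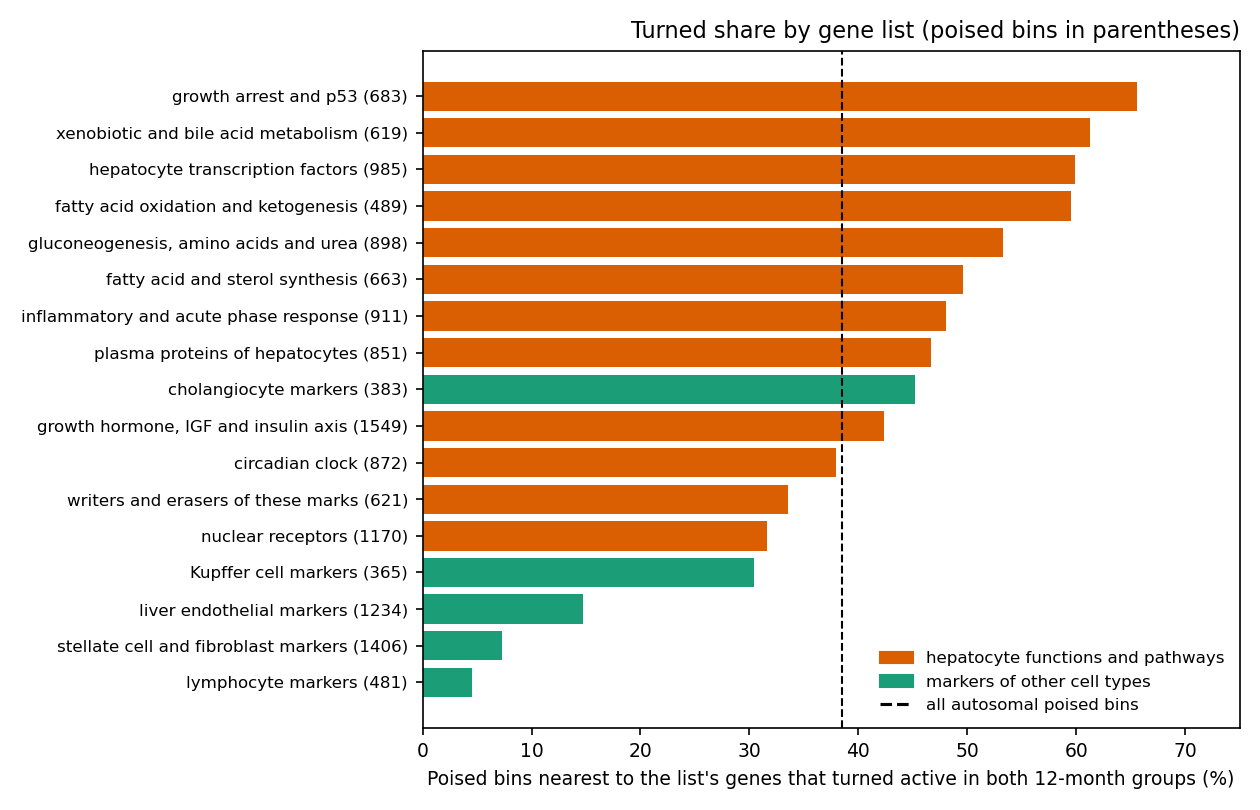
Percent of the poised bins nearest to the genes of each list that turned active in both 12-month groups (horizontal axis), for lists of functions and pathways (orange) and markers of other cell types (green), with the number of poised bins in parentheses. The legend calls the orange lists hepatocyte functions and pathways, but several of them are not particular to hepatocytes. The dashed line is the 38.5% of all autosomal poised bins, and the bars run from 4.57% for lymphocyte markers to 65.6% for growth arrest and p53.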

How the data were processed

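Reads of 88 libraries were aligned by the authors to mm10 with BWA 0.6.2-r126, filtered with SAMtools 0.1.18 per the submitters' processing notes, merged per group and mark, and segmented with ChromHMM in 1 model of 8 states over all groups. The deposited value is the state label of each bin of 200 bp, 13168874 bins per group, with no signal and no read depth. All 3 segmentations, SD 3m, SD 12m and CR 12m, entered, and SD 6m was not analysed here. The last whole bin of each of 20 chromosomes matched the length in GRCm38.p6, from which genes (26089, longest curated transcript each), GC content, soft-masked repeats and words on either strand were taken.

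Bins were counted in Python 3.11.15 with numpy 2.4.6, pandas 2.3.3 and scipy 1.17.1, without a filter, and the functions were tested on simulated segmentations. A bin counted towards the gene with the nearest TSS to its centre. Genes named were the 20 with the most turned bins, up to 15 with the highest share among those with at least 50 poised bins, the nearest genes of the 10 longest stretches and the leading 3 of each of 17 lists. A gene that this rule names is not reported here. With 1 segmentation per group no test was made. The bins, lists and words were chosen with earlier results of these data known. Alternatives concerned stretch length, bins near a change of state, windows of 1 kb, chromosome X and the definition of neighbours and TSS.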

Additional observations from a re-analysis of the deposited data

How the results depend on the processing

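Of 27 values recomputed under the alternatives, 21 left the Wilson 95% limits of the reported value, which are narrow as they count bins. With only stretches of at least 1 kb, 31.2% of poised bins turned, state 3 took 33.6% (SD 12m) and 45.8% (CR 12m) of turned bins, 82.6% of stretches were next to an active bin, 6.93% of bins lay within 2 kb of a TSS, and GC content was 47.9%. Without bins within 1 kb of a change of state in SD 3m, the values were 29.3% turned, 27.5% and 38.2% in state 3, 5.82% near a TSS and 47.7% GC. With windows of 1 kb, each given its most frequent state, they were 38.8% turned, 39.9% in state 3 in SD 12m, 84.6% next to an active bin and 47.6% GC. With chromosome X, 37.7% turned and GC was 47.8%. Merging stretches across gaps of 1 bin gave 86.2% next to an active bin, and counting any active bin within 1 kb gave 89.5%. Start sites of all curated transcripts put 8.02% of turned bins within 2 kb, and within 5 kb lay 20.7%. State 3 was the more frequent in CR 12m under each of these settings that gave both shares. No paired analysis was possible because each group has 1 segmentation of merged libraries. The unknown read depth of the merged libraries limits all of these values, and the numbers of bins do not stand for mice.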

Other observations

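Chromosome X lay outside the rule and was counted in the same way. Of its 20182 poised bins of SD 3m, 2058 (10.2%) carried state 3 or 4 in both 12-month groups, in 319 stretches, a share below the 29.7% of the lowest autosome. State 5 was kept in both groups by 38.0%, and 11.4% were in state 8 in both. The diets were far apart on this chromosome: 2309 of the poised bins (11.4%) were in state 3 or 4 in SD 12m and 6745 (33.4%) in CR 12m, of which 4687 were active in CR 12m alone and 251 in SD 12m alone. Of the 2058 bins active in both, state 3 took 48.0% in SD 12m and, in CR 12m, 60.0%.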
